A study of Homo sapiens and Mus musculus with 20 samples.

Results

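The genes described here are the protein-coding genes of human chromosome 19 whose symbol is ZNF or ZFP followed by a number, with at most 1 further letter: 251 of the 19970 protein-coding genes of GRCh38. The symbols and the chromosome alone chose them. Neighbours at most 500 kb apart were joined and groups of at least 5 genes kept, which put 236 of the 251 genes into 10 clusters, numbered from the short-arm end, and left 15 outside. A symbol does not give a protein's structure. ZFP36, which meets the rule, encodes a CCCH zinc finger protein that binds messenger RNA and promotes its decay.

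Most genes of these clusters encode C2H2 zinc finger proteins in which a KRAB domain is joined to a row of DNA-binding fingers. They arose by repeated tandem duplication, and many of the proteins bind transposable elements, where the KRAB domain recruits TRIM28 and, through it, the H3K9 methyltransferase SETDB1. KDM6A removes methyl groups from H3K27, the mark of Polycomb repression when trimethylated (H3K27me3), and belongs to the KMT2C and KMT2D complexes, which place H3K4me1 at enhancers and around promoters. H3K27ac marks active promoters and enhancers. Neither H3K9me3 nor expression is analysed here.

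The study addressed KDM6A and the immunogenicity of multiple myeloma, a cancer of plasma cells, and 16 human chromatin immunoprecipitation libraries, 1 a group, are used here. ARP1, a human myeloma line, was wild type for KDM6A (WT), KDM6A knock out (KO) or JmjD-dead, a line titled H1146E and named for the catalytic domain of KDM6A. Each of these 3 genotypes gave an H3K27ac, an H3K27me3 and an input library. H3K4me1 came from WT and KO, as did the libraries made with an antibody to KDM6A. An HA antibody was used on the untagged WT line and on an HA-tagged line whose genotype label reads knock out. KARPAS, a second line labelled multiple myeloma and wild type for KDM6A, gave 1 KDM6A library and no background library. The labels do not say whether a line is 1 clone, and region lists cannot show whether the KDM6A coding sequence is disrupted. With 1 library a group, no difference has a replicate behind it and no test was made. Intervals in parentheses are exact Clopper-Pearson 95% intervals and cover counting error only.

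The fragments left after the authors' filtering numbered 25568819 to 31171803 for H3K27ac, 34023091 (WT) and 25570686 (KO) for H3K4me1, and 222942 to 724630 for the inputs. H3K27me3 had 5026016 (WT), 6595820 (KO) and 10449019 (JmjD-dead), and the KDM6A and HA libraries 11898708 to 37389280 tags. H3K27ac stood at 10 of 10 plasma cell marker genes in each genotype. In WT it also stood at 1 of 5 marker genes of B cells, 3 of 6 of T and NK cells, 1 of 6 of epithelium and stroma, and 0 of 6 of myeloid and red cells. The H3K4me1 list of KO stood apart: it covered 0.528 of the length of the WT list, with a median region of 220 bp against 300 bp, and 5.9% of its regions lay on chromosome 19 against 4.31%.

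H3K27ac was present at fewer of the chromosome 19 zinc finger genes than of genes at large. A gene is called marked when a region of the list lies within 2.5 kb of either of its ends. In WT 117 of the 251 genes were marked, which is 46.6% (40.3 to 53), against 61.6% of all genes. KO had 123 marked genes, 49% (42.7 to 55.4) against 63.7%. JmjD-dead had 120, 47.8% (41.5 to 54.2) against 61.7%. ZNF and ZFP genes of other chromosomes were marked more often, at 74% (68.4 to 79.1) of 277 genes in WT, and so were the 1200 other genes of chromosome 19, at 64.6% (61.8 to 67.3). The 87 other genes that lie inside the clusters were marked at 31% (21.5 to 41.9).

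**Figure D1:**
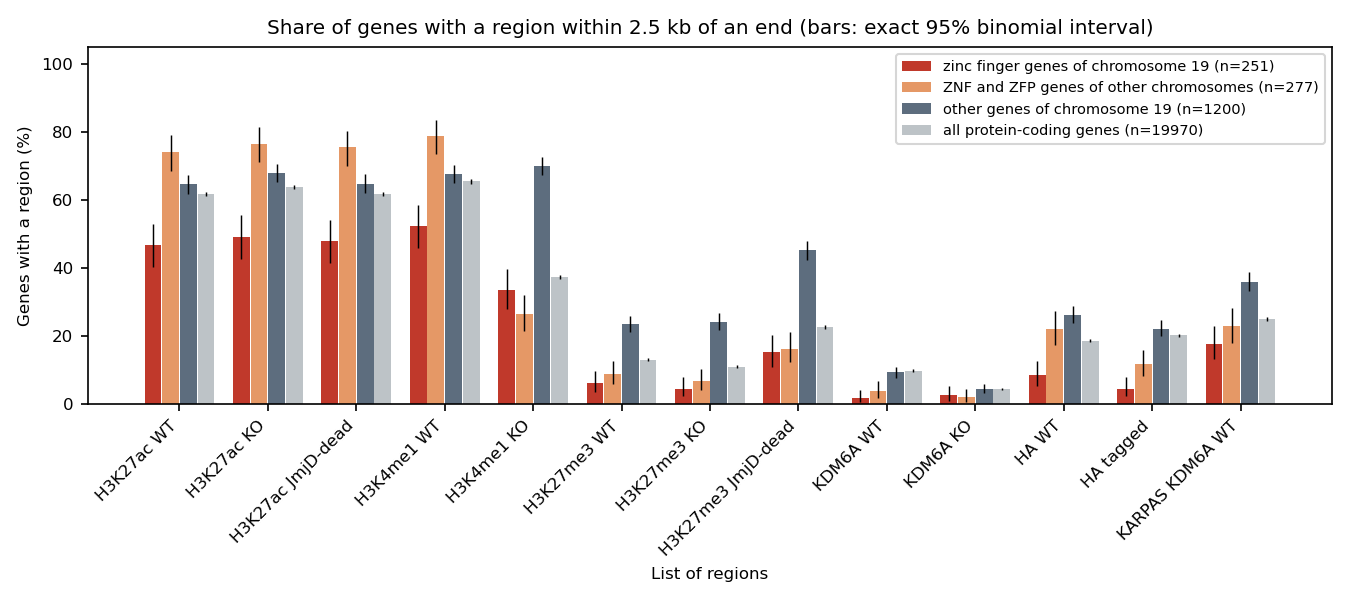
Share of genes with a region within 2.5 kb of an end (y axis, percent) on each list of regions (x axis) for the sets of genes named in the key, with exact 95% binomial intervals. On the WT H3K27ac list the zinc finger genes of chromosome 19 stand at 46.6% and those of other chromosomes at 74%.

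The clusters differed. Cluster 10, the array of 43 genes from ZNF264 to ZNF446 near the end of the long arm, had H3K27ac at 31 genes in WT (72.1%, 56.3 to 84.7), and the genes outside clusters at 12 of 15 (80%). Middle shares were found in clusters 2 (8 of 13), 7 (13 of 23), 9 (9 of 17) and 3 (13 of 25), and clusters 1 and 5 had 2 of 5 each. The lowest were cluster 8 with 11 of 39 (28.2%, 15 to 44.9), cluster 4 with 10 of 37 (27%, 13.8 to 44.1) and cluster 6 with 6 of 29 (20.7%, 7.99 to 39.7). The intervals of these last 3 lay wholly below that of cluster 10, but such intervals take genes as independent. Some neighbours share a region, and these clusters were picked by their values. The order was nearly the same in the mutants, where the count of cluster 8 was 15 in KO and 13 in JmjD-dead, and no other cluster moved by more than 1 gene.

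**Figure D2:**
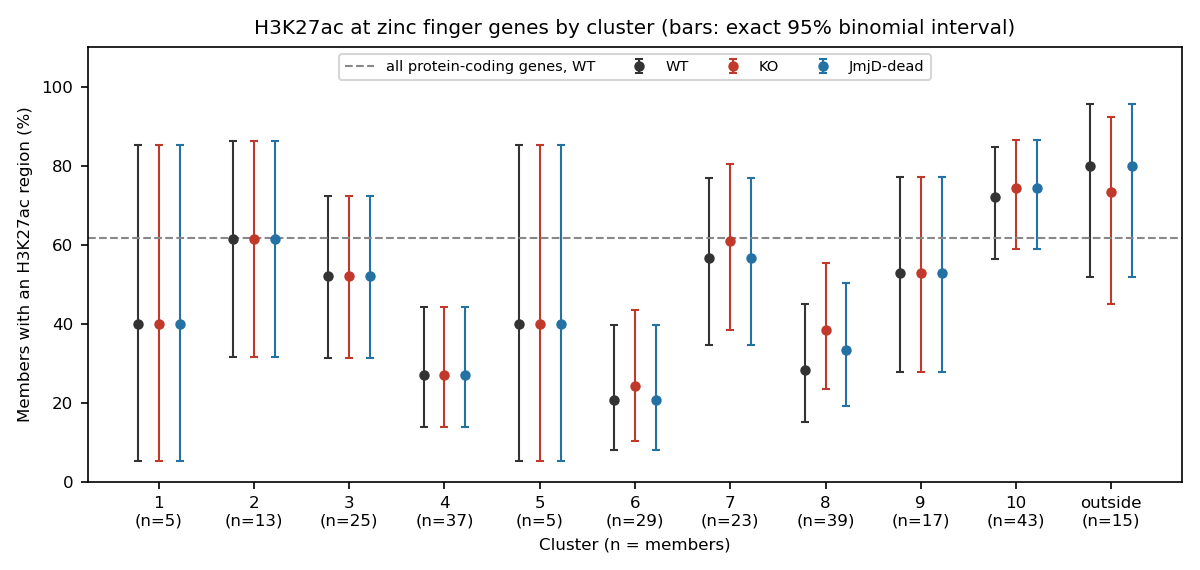
Share of zinc finger genes with an H3K27ac region (y axis, percent) by cluster (x axis, with the number of genes) in WT, KO and JmjD-dead, 1 library each, with exact 95% binomial intervals and the share of all genes in WT as a dashed line. Clusters 4, 6 and 8 lie lowest and cluster 10 and the genes outside clusters highest.

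Unmarked genes lay side by side. In cluster 4, 13 neighbours from ZNF43 to ZNF91 (chr19:21804946-23395471, 1.59 Mb) had no region on any of the 8 histone lists and none on the KARPAS list. A second run of 8 genes from ZNF506 to ZNF626, 869 kb long, was empty on the same lists and holds ZNF93, a repressor of LINE-1 elements. The acetylated genes of the cluster were ZNF101 and ZNF14 before these runs, ZNF66, ZNF430, ZNF714, ZNF431, ZNF708, ZNF429 and ZNF100 between them, and ZNF675 after. Cluster 6 held 2 runs of 7 genes without H3K27ac in any genotype, ZNF790 to ZNF585B and ZNF569 to ZNF607. Clusters 3, 8 and 9 each held 1 run of 6. Over the whole set 126 genes (50.2%) lacked H3K27ac in all 3 genotypes, against 34.3% of all genes, and 114 (45.4%) had it in all 3, against 59.3%. No region on any of the 8 histone lists was found at 100 genes (39.8%, against 26.1%), of which 26 were in cluster 4, 18 in cluster 8, 16 in cluster 6 and 8 in cluster 10.

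**Figure D3:**
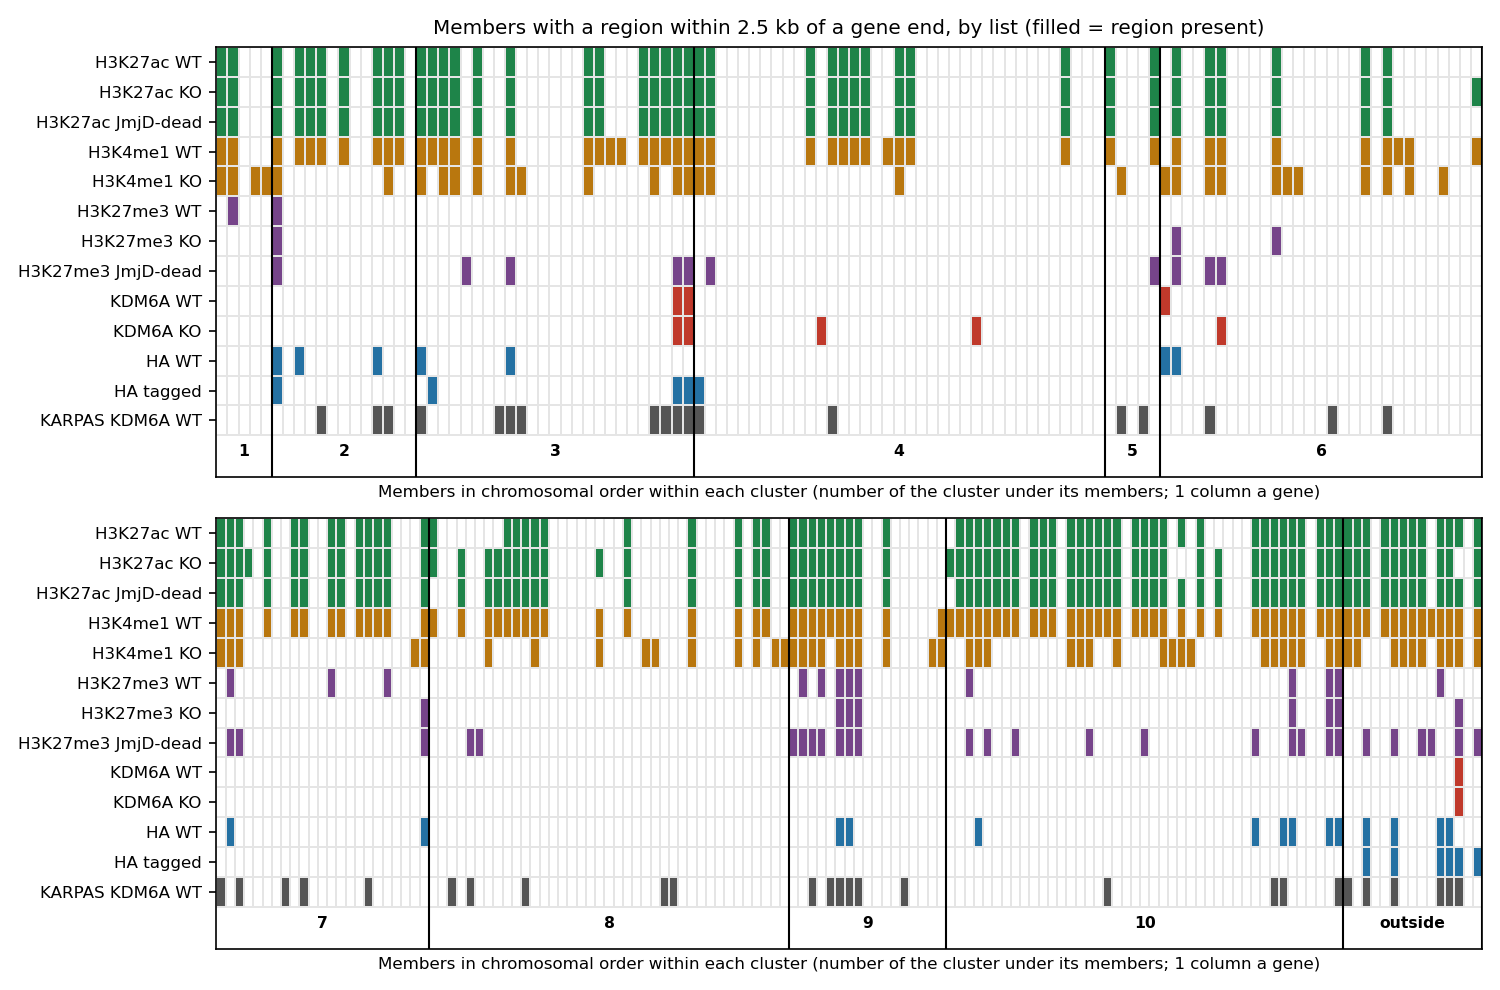
Zinc finger genes of chromosome 19 in chromosomal order within each cluster, with genes outside clusters last (x axis, 1 column a gene) and the lists of regions (y axis), filled where a region lies within 2.5 kb of an end of the gene. The widest blank stretches are those of cluster 4, with runs of 13 and 8 genes.

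Promoters of cluster 4 are shown because genes of 1 tandem array differed in H3K27ac. Shown are the 250 bases before the start, 5′ to 3′ on the strand of the gene, from RefSeq (GRCh38.p14). Capitals mark matches on either strand to the ETS letters CCGGAAG, to CCAAT, and to the YY1 letters AAGATGGCG. ZNF430 (chr19:21020407-21020656, plus strand) and ZNF431 (chr19:21141790-21142039, plus strand) had H3K27ac in all 3 genotypes. ZNF43 (chr19:21836183-21836432, minus strand) and ZNF91 (chr19:23395472-23395721, minus strand), which represses SVA elements, had it in none.
ZNF430: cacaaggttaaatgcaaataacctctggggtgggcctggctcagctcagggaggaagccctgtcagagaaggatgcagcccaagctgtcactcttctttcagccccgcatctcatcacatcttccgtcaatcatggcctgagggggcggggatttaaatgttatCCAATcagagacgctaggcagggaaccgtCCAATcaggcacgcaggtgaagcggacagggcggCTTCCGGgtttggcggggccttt
ZNF431: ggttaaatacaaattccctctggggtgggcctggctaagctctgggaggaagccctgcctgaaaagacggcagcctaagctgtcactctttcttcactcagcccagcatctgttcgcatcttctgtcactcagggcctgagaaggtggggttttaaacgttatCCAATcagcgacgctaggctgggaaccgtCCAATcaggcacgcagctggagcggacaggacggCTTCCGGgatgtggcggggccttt
ZNF43: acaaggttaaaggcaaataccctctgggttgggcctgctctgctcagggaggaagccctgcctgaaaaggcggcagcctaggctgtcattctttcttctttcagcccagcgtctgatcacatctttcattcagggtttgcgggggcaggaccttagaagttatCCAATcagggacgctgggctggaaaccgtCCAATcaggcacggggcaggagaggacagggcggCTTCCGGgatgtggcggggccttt
ZNF91: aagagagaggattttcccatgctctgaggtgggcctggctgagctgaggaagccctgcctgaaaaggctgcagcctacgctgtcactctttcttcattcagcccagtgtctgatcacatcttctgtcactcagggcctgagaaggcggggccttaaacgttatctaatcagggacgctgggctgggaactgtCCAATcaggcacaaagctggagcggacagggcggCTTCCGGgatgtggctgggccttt
All 4 held CCAAT and, near the start, the ETS letters on the opposite strand. Aligned end to end over the 300 bases from 250 before to 50 after the start, ZNF431 was identical to its marked neighbour ZNF714 at 91% of positions, the highest value of any pair of the cluster. It was identical to marked ZNF430 at 84.3%, to unmarked ZNF91 at 83.5% and to unmarked ZNF43 at 81.2%. Over all 406 pairs of cluster 4 the median was 75.9%, against 50.6% to 56.1% within the other clusters and 51% between genes of clusters 4 and 10. Within cluster 4 it was 77.4% between unmarked genes, 56.4% between marked genes and 67.9% between a marked and an unmarked gene.

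Promoters were found for 219 of the 251 genes and for 15807 genes in all. Their starts come from a separate promoter annotation and are not always the gene ends used for marks. At ZNF420 the promoter start was chr19:37078222, whereas an input region at chr19:37006510-37006818 counted as lying at its start. At such genes the mark and the promoter letters or CpG count set beside it come from different places. How many genes differ was not counted. The ETS letters, a core that ETS factors bind, stood in 97 of the 219 (44.3%, 37.6 to 51.1), against 14.1% of all promoters and 32.7% (26.7 to 39.3) of those of ZNF and ZFP genes of other chromosomes. These intervals take promoters as independent, which copies in a tandem array are not: pairs of cluster 4 had a median identity of 75.9%. Among all genes the ETS letters were found in 19.8% of promoters of genes with H3K27ac in WT and in 4.09% of those of genes without. Among the zinc finger genes of chromosome 19 the shares were close, at 47 of 109 with H3K27ac (43.1%, 33.7 to 53) and 50 of 110 without (45.5%, 35.9 to 55.2). Clusters 4 (21 of 29), 10 (27 of 40) and 8 (20 of 32) held them often, and cluster 3 seldom (2 of 24). Among the marked genes alone the counts were 6 of 10 in cluster 4, 20 of 28 in cluster 10, 8 of 10 in cluster 8 and 1 of 13 in cluster 3. Cluster 6 had 6 of 27, and 0 of its 6 marked genes. The close shares thus pool clusters that differed.

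CCAAT stood in 53.4% of the promoters against 36.4% of all, in all 29 of cluster 4 and in 22 of 24 of cluster 3. The TATA letters TATAAA were rarer, at 2.28% against 9.76%. The NRF1 letters GCGCATGC stood in 4.57% against 4.28%, the YY1 letters in 3.65% against 2.7% and the AP-1 letters TGACTCA in 2.28% against 3.62%. Both strands were searched for each motif, none of the motifs holds another, and a match is a match of letters only.

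CpG dinucleotides, which gather at promoters of broadly used genes, separated marked from unmarked genes over the genome and less so here. Over all genes the median count in 300 bases was 26 with H3K27ac in WT and 8 without. Over the zinc finger genes it was 22 with and 18 without. Of the promoters of unmarked zinc finger genes 67.3% held more than 15, against 35.5% of those of unmarked genes at large. Cluster 4 had the lowest median, 10 in its marked and 10 in its unmarked genes, and cluster 9 the highest, 29.5.

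**Figure D4:**
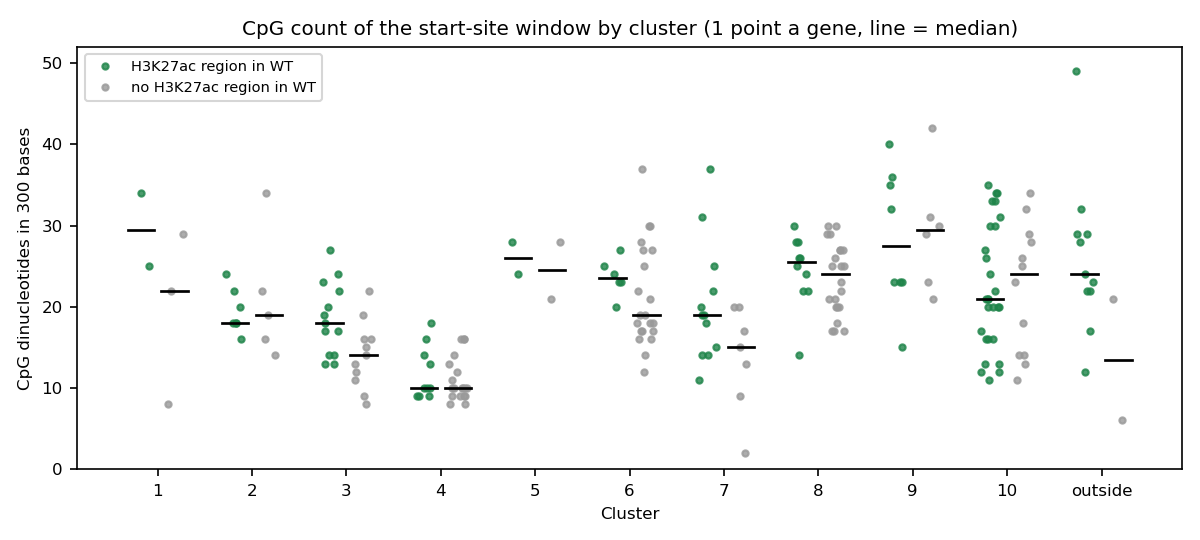
CpG dinucleotides in the 300-base promoter of each zinc finger gene (y axis) by cluster (x axis), 1 point a gene, green with an H3K27ac region in WT and grey without, with lines at the medians. Cluster 4 lies lowest, at 8 to 18, and marked and unmarked genes overlap there.

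Where H3K27ac was present it lay at the start of the gene. Among marked genes of known strand, 99.1%, 100% and 99.1% (WT, KO, JmjD-dead) had a region within 2.5 kb of the start, against 94.7%, 94.3% and 94.5% over all genes. The 117 genes marked in WT rested on 113 distinct regions, since some neighbours share one. From here on, 3 values in a row stand for WT, KO and JmjD-dead in that order. Folds, ranks and −log10 q are the authors' values for a region and describe its place within its own list.

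The highest ranked region belonged to ZFP36, the mRNA decay factor. It was 13858, 11397 and 11489 bp long, covered the whole gene, and stood at ranks 55, 77 and 116 of 69127, 76242 and 74063 regions. Among the C2H2 genes ZNF524 came first in WT, at rank 703, with regions of 2837, 3064 and 1964 bp. ZNF576 (rank 756) had 2882, 3630 and 3115 bp, and ZNF414 (rank 1212) had 1995, 2869 and 2163 bp. These genes were marked strongly in every genotype.

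ZNF274, which guides SETDB1 to the 3′ ends of zinc finger genes, came next at rank 1388, with regions of 2075, 2142 and 1812 bp and folds of 73.7, 72.7 and 80.6. Its promoter (chr19:58182811-58183060, plus strand) is shown because it also lost its H3K4me1 region in KO, as described below.
ZNF274: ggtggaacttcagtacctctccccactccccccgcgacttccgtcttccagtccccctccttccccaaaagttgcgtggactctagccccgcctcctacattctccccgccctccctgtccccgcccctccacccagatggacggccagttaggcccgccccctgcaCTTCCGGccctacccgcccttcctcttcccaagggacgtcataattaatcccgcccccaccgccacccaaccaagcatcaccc
It holds 1 match, to the ETS letters.

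The lowest ranked regions in WT were short. ZNF66 had 185, 294 and 261 bp, at folds of 3.72, 4.99 and 4.32. ZNF440 had 184, 446 and 264 bp, ZNF709 had 197, 686 and 521 bp, ZNF761 had 382, 614 and 537 bp and ZNF233 had 210, 443 and 150 bp. All 5 were marked in each genotype, and in all 5 the KO region was the longest.

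Few genes lost H3K27ac. Of the 117 marked in WT, 2 were unmarked in KO (1.71%, 0.208 to 6.04, against 1.93% of all marked genes) and 1 in JmjD-dead (0.855%, 0.0216 to 4.67, against 2.75%). Both comparisons use the same WT library. ZNF587 of cluster 10, lost in KO, had 204, 0 and 419 bp covered over the gene and 10 kb either side, all at its start. Covered length measured this way counts every region in that span, those of a neighbouring gene included. ZNF541, a gene of meiotic germ cells outside the clusters, had 3483, 2368 and 5559 bp, and was called lost because the region at its far end (chr19:47518542-47518887) was missing in KO. It was not called lost with a window of 1 kb, a window of 10 kb or the start alone. ZNF175, the first gene of cluster 8 and the loss in JmjD-dead, had 1211, 861 and 0 bp, and its best WT region lay past its far end (chr19:51594012-51594973). Unlike ZNF541, it also had a WT region near its start, and it was called lost with the start alone as well.

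The shares gained were not above those of all genes. Of 134 genes unmarked in WT, 8 were marked in KO (5.97%, 2.61 to 11.4, against 8.54% of all unmarked genes) and 4 in JmjD-dead (2.99%, 0.819 to 7.47, against 4.58%). Cluster 8 held 4 of the 8 and 3 of the 4. The others in KO were 2 in cluster 10 and 1 each in clusters 6 and 7, and cluster 4 had none.

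Region lengths are given for these genes, with 0 where there was none. ZNF432 of cluster 8 had 0, 867 and 598 bp at its start, and its neighbour ZNF614 had 0, 209 and 626 bp. In KO the region of ZNF432 was the longer of these, and in JmjD-dead that of ZNF614. ZNF613 had 0, 176 and 160 bp. Between ZNF614 and ZNF613 lie ZNF350 and ZNF615, which had no H3K27ac region in JmjD-dead. ZNF256 of cluster 10 had 0, 415 and 135 bp. These 4 genes had a region in both mutants and none in WT.

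The other 4 had a region in KO alone, with nothing covered in WT or JmjD-dead up to 10 kb from the gene. ZNF573 had 394 bp, ZNF283 had 356, ZNF264 had 354 and ZNF808 had 217. The best regions of the 8 stood at ranks 27580 to 68992 of 76242 in KO. With only regions of −log10 q of at least 5 in both lists, 11 genes were gained in KO: 7 of the 8, without ZNF613, and the weakly marked ZNF66, ZNF233, ZNF440 and ZNF709. In JmjD-dead 4 were gained, of which ZNF432 and ZNF614 were shared with the first count.

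**Figure D5:**
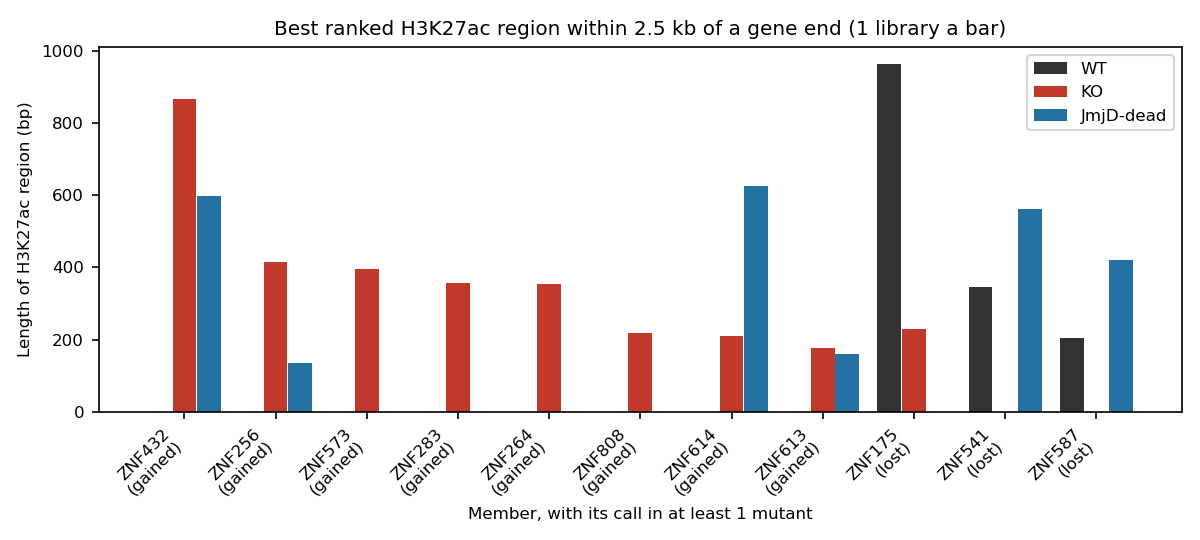
Length of the best ranked H3K27ac region within 2.5 kb of a gene end (y axis, bp, 0 where there was none) in WT, KO and JmjD-dead, 1 library each, at the zinc finger genes called gained or lost (x axis). The 8 genes gained in KO stand at 0 in WT and at 176 to 867 bp in KO.

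The promoters of ZNF432 (chr19:52048839-52049088, minus strand), ZNF614 (chr19:52028380-52028629, minus strand) and ZNF256 (chr19:57947707-57947956, minus strand), marked in both mutants only, and of ZNF587 (chr19:57849609-57849858, plus strand), unmarked in KO only, are shown to set the genes whose call differed beside the 4 of cluster 4.
ZNF432: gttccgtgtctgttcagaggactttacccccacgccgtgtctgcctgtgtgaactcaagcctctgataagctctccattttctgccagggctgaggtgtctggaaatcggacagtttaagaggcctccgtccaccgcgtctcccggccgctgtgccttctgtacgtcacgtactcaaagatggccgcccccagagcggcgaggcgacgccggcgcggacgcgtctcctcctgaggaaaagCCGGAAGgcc
ZNF614: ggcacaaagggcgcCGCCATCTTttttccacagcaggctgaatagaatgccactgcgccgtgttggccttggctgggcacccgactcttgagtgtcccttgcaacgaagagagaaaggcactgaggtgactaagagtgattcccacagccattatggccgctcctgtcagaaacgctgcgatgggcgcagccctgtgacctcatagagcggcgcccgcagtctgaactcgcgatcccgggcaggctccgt
ZNF256: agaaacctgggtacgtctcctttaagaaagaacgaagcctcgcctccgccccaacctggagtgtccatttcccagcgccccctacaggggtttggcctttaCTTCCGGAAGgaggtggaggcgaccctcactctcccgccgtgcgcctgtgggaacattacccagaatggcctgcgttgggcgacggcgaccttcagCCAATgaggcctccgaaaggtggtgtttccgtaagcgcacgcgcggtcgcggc
ZNF587: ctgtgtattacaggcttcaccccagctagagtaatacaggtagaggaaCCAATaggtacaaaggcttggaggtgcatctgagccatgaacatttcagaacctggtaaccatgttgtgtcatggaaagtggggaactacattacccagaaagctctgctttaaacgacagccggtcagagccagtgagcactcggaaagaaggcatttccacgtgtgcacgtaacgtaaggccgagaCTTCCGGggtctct
ZNF432, ZNF256 and ZNF587 held the ETS letters, ZNF256 and ZNF587 CCAAT, and ZNF614 the YY1 letters. The same letters stood in many genes whose call did not differ, as counted above.

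The gained genes were mostly ones with H3K4me1 already in WT. Of the 14 zinc finger genes with H3K4me1 and without H3K27ac in WT, 7 had H3K27ac in KO (50%, 23 to 77) and 4 in JmjD-dead (28.6%, 8.39 to 58.1). Of the 120 with neither, 1 had it in KO (0.833%, 0.0211 to 4.56), which was ZNF283, and 0 in JmjD-dead (up to 3.03%). Genes at large split the same way, at 43.1% of 884 and 4.03% of 6775 in KO and at 25.1% and 1.9% in JmjD-dead. The WT H3K4me1 region of ZNF432 (chr19:52048682-52049245) had a fold of 7.69, that of ZNF614 of 7.29 and that of ZNF256 of 6.07. The 7 that stayed without H3K27ac in both mutants were ZNF563 and ZNF442 of cluster 3, ZNF493 of cluster 4, ZNF569 and ZNF570 of cluster 6, ZNF835 of cluster 9, and ZNF574 outside clusters.

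The length covered by H3K27ac in KO was greater than in WT at most genes of the set. Of 120 genes with at least 500 bp in WT, 99 had a ratio of KO to WT above 1 (82.5%, against 66.7% of all genes), and the median ratio was 1.19, against 1.1. Other genes of chromosome 19 had 1.22, with 85.7% above 1. Medians by cluster ran from 1.01 in cluster 1 to 1.32 in cluster 4, and in cluster 10 the median was 1.23, with 29 of 32 genes above 1. In JmjD-dead 56 genes were above 1 (46.7%, against 45.1%) and the median was 0.962, against 0.982. The whole lists covered 1.04 (KO) and 0.985 (JmjD-dead) of the WT length, and how far the amount called in each library moves these ratios was not tested.

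H3K4me1 in WT marked 131 genes (52.2%, 45.8 to 58.5, against 65.5% of all genes), among them the 117 with H3K27ac (89.3% of the 131, against 93.2% of all genes with H3K4me1). In KO it marked 84 (33.5%, 27.7 to 39.7, against 37.4%). Of the 131 genes, 63 were unmarked in KO (48.1%, 39.3 to 57, against 51.8%). ZNF and ZFP genes of other chromosomes were lost at 67.4% (60.8 to 73.6) and other genes of chromosome 19 at 15.4% (13 to 18.1). Of its genes marked in WT, cluster 10 lost 17 of 33, cluster 8 lost 9 of 15 and cluster 7 lost 9 of 13. Cluster 4 lost 8 of 11, cluster 2 lost 6 of 8 and cluster 5 lost 2 of 2. Losses were fewer in cluster 3 (6 of 15), cluster 6 (2 of 9), cluster 9 (1 of 10) and cluster 1 (0 of 2). Outside clusters 3 of 13 were lost.

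ZNF274 had the highest ranked region among those lost, at rank 546 of 95729 in WT, with 2366 bp covered in WT and 0 in KO. ZNF333, outside the clusters, had 1693 bp and 0, and ZNF121 of cluster 2 had 1432 bp and 0. ZNF562, ZNF708, ZNF841, ZNF44, ZNF675, ZNF805 and ZNF317 had 880 to 1843 bp in WT and 0 in KO. H3K27ac stayed at ZNF274 in KO, as given above.

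Newly marked with H3K4me1 in KO were 16 of 120 genes (13.3%, 7.82 to 20.7, against 16.9%). ZNF28 of cluster 8 had 448 bp in KO, and ZNF790 and ZNF345 of cluster 6 shared 1 region of 199 bp. ZNF331, known as an imprinted gene, had 1975 bp in KO, of which the region at its far end was 195 bp. ZNF57, ZNF181, ZNF571, ZNF814 and ZNF71 had 141 to 296 bp, and all of these stood at 0 in WT. ZNF565 had 2012 bp in WT and 710 in KO, and was called for a 234 bp region near its start.

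The KO regions were weak. At marked genes their median fold was 4.07 and their median length 220 bp, against 19.4 and 1077 bp in WT. With −log10 q of at least 5, 12 genes were marked in KO. Of the 121 marked in WT at that cut, 110 were lost, and 1 gene was gained. The share of all genes lost at that cut was not computed. The median ratio of covered length in KO to WT was 0.191 over 140 genes, against 0.0987 over all genes, 0.311 over other genes of chromosome 19 and 0.0434 over ZNF and ZFP genes of other chromosomes. Of the 140, 4 were above 1, against 5.98% of all genes. The part of the KO library's weaker list in these values was not tested.

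H3K27me3 regions were rare at these genes. They marked 15 genes in WT (5.98%, 3.38 to 9.67, against 12.9% of all genes), 11 in KO (4.38%, 2.21 to 7.71, against 10.9%) and 38 in JmjD-dead (15.1%, 10.9 to 20.2, against 22.6%). Of other genes on chromosome 19, 23.4%, 24.1% and 45.2% were marked. H3K27ac stood at all 15 genes in WT, at 10 of 11 (KO) and at 34 of 38 (JmjD-dead). Of all genes marked on these lists 94.8%, 96.1% and 90.1% had it, so the overlap was general to the lists. These regions are therefore given as regions of the H3K27me3 libraries and not as Polycomb domains. The exceptions were ZNF541 in KO, and ZNF491, ZNF574, ZNF350 and ZNF615 in JmjD-dead, of which ZNF350 and ZNF615 shared 1 region of 275 bp.

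In KO 8 of the 15 genes were unmarked (53.3%, 26.6 to 78.7, against 61.8%). ZNF526 had 1012, 0 and 230 bp covered, ZNF576 had 585, 0 and 381 bp and ZNF865 had 248, 0 and 1122 bp. ZNF579 had 431, 0 and 355 bp and ZNF460 had 350, 0 and 464 bp. ZNF235, ZNF555 and ZNF224, a KRAB repressor, had 207, 205 and 190 bp in WT and 0 in both mutants. In JmjD-dead these last 3 and ZNF526 were unmarked, 4 of 15 (26.7%, 7.79 to 55.1, against 35.4%). With lists of equal length 9 were unmarked in JmjD-dead. With −log10 q of at least 5 the losses came to 1 gene in each mutant.

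KO newly marked 4 of 236 genes (1.69%, 0.464 to 4.28, against 6.83%). ZNF146, whose protein consists almost wholly of zinc fingers, had 0, 676 and 198 bp, ZNF850 had 0, 324 and 0 bp, and ZNF180 had 0, 193 and 222 bp. ZNF541 had 401, 294 and 2437 bp. The KO counts were thus below the share of all genes, and below the 18.1% of other genes of chromosome 19.

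JmjD-dead newly marked 27 of 236 (11.4%, 7.68 to 16.2, against 16.4%). They included 6 of the 15 genes outside clusters, 6 of the 43 of cluster 10 and 4 of the 25 of cluster 3. ZNF274 had 0, 0 and 764 bp, ZNF473, a factor of histone mRNA processing, had 0, 0 and 641 bp, and ZNF792 had 0, 0 and 428 bp. ZNF490 and ZNF791, which lie side by side, had 0, 214 and 529 bp. ZNF260, ZNF491, ZNF14 and ZNF17 had 203 to 267 bp in JmjD-dead and 0 in the others. The JmjD-dead library was the deepest of the 3 and its list covered 2.66 times the WT length. The count was 8 with lists of equal length, 14 without regions on H3K27ac and 5 with −log10 q of at least 5. Only 9 genes had 500 bp or more in WT. Their median ratio to WT was 0.445 in KO, with 4 above 1 (44.4%, against 19.5%), and 1.28 in JmjD-dead, with 5 above 1 (55.6%, against 66.6%).

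Few zinc finger genes had a KDM6A region within 2.5 kb of an end in ARP1. The WT list marked 4 genes (1.59%, 0.436 to 4.03, against 9.69% of all genes) and the KO list, the background of the antibody, 6 (2.39%, 0.882 to 5.13, against 4.24%). With a window of 10 kb the counts were 27 in WT and 13 in KO. The share of all genes was not computed at 10 kb, and the lists held 90964 (WT) and 44936 (KO) regions. Within 2.5 kb, no gene of clusters 1, 2, 4, 5, 7, 8, 9 and 10 had one in WT. The divergent neighbours ZNF490 and ZNF791 of cluster 3 shared 1 region inside ZNF791, with a fold of 4.25 in WT (chr19:12612943-12613142) and 6.41 in KO (chr19:12612832-12613106). ZNF541 had a region at its far end, with a fold of 9.04 in WT and 5.21 in KO. ZNF85, ZNF98 and ZNF260 had a region in KO and none in WT.

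ZNF565 of cluster 6 was the 1 gene with a WT region that no KO region overlapped (0.398%, 0.0101 to 2.2, against 8.28% of all genes). That region (chr19:36247177-36247620) ranked 68792 of 90964, with a fold of 4.25. A region of the HA list of the untagged line lay on it, with a fold of 7.17, and with such regions left out the count was 0. With a window of 10 kb it was 21, again with no share of all genes computed.

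The HA antibody marked 21 genes in the untagged line (8.37%, 5.25 to 12.5, against 18.5%) and 11 in the tagged line (4.38%, 2.21 to 7.71, against 20.1%). All 11 had a region that no region of the untagged line overlapped (4.38%, against 16% of all genes), and all 11 had H3K27ac in WT, against 93% of all genes with such a region. They were ZNF414 of cluster 2, ZNF627, ZNF490 and ZNF791 of cluster 3, ZNF101 of cluster 4, and ZFP36, ZNF333, ZNF526, ZNF296, ZNF541 and ZNF473 outside clusters. The strongest lay past the 3′ end of ZFP36 (chr19:39411174-39412024), with a fold of 6.27. At the start of ZFP36 both HA lists had a region, with folds of 17.9 in the untagged and 8.01 in the tagged line. ZNF101 had a fold of 5.22, ZNF627 and ZNF541 had 4.88 and ZNF490 with ZNF791 had 4.53. Like ZFP36, the genes ZNF414, ZNF333, ZNF526 and ZNF296 also had a region of the untagged line within 2.5 kb of an end. The folds there were 4.93, 4.03, 4.03 and 3.59, against 4.18, 4.18, 3.48 and 4.18 in the tagged line. At these genes the tagged-only call thus means a different place, not an absence of HA regions in the untagged line. With −log10 q of at least 5, 4 of the 11 were left.

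The KARPAS list marked 44 genes (17.5%, 13 to 22.8, against 24.9% of all genes), of which 33 had H3K27ac in ARP1 WT (75%, 59.7 to 86.8, against 78.6% of all genes on the list). ZNF541 led with a region of 896 bp at its far end, at rank 207 of 55867 and a fold of 35. ZNF490 and ZNF791 followed with a region of 1518 bp (chr19:12612732-12614249), at rank 556 and a fold of 28.4, which spans their ARP1 regions. ZNF524 came next with a fold of 10.1, then ZNF561 and ZNF787 with 9.82. Cluster 3 had 8 of 25 genes marked, cluster 9 had 6 of 17 and the genes outside clusters 6 of 15, whereas cluster 4 had 2 of 37 and cluster 10 had 4 of 43. With no background library for KARPAS, regions of the antibody alone and regions of KDM6A cannot be told apart.

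ZNF541 and the pair ZNF490 and ZNF791 were the zinc finger genes with a region on the KDM6A lists of WT, KO and KARPAS and on the tagged HA list. Because the KO list holds both places, they are given as regions and not as KDM6A sites. The 106 bases between the starts of ZNF490 and ZNF791 (chr19:12610814-12610919, shown on the plus strand, GRCh38.p14) are the promoter nearest to the second of these places and lie inside the WT H3K27ac region (chr19:12610229-12611860), whereas the KDM6A regions lie beyond it.
ZNF490 and ZNF791: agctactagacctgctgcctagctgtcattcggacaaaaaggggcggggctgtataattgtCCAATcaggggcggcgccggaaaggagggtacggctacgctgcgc
It holds 1 CCAAT and no other match. The inputs marked 2 zinc finger genes in WT (against 1.68% of all genes), 9 in KO (against 4.31%) and 5 in JmjD-dead (against 1.07%), with folds of 2.89 to 3.85, and neither place was among them. With 222942 to 724630 fragments and pileups of 2 or 3 at these regions, the inputs are too shallow to show whether the 2 places are background.

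Of 24 partner genes of KRAB repression, 23 had H3K27ac in all 3 genotypes, against 59.3% of all genes. None of the 23 was lost, and of all genes marked in WT few were, at 1.93% in KO and 2.75% in JmjD-dead. TRIM28, the corepressor that KRAB domains bind, lies just past the end of cluster 10 (chr19:58544064-58550715) and had 12700, 16036 and 13678 bp covered. SETDB1, the H3K9 methyltransferase, had 4538, 6840 and 3387 bp, and its cofactor ATF7IP had 4249, 4674 and 3312 bp. TASOR, a subunit of the HUSH silencing complex, had 1438, 1636 and 1176 bp. UHRF1, which recruits DNMT1 to replicated DNA, was the gene with no region at an end, although 4077, 6222 and 4338 bp were covered in and around it. H3K4me1 marked 23 of the 24 in WT (against 65.5% of all genes) and 8 in KO (against 37.4%). Its covered length was greater in KO at SETDB1 (4655 bp in WT, 44120 in KO) and EHMT1 (3563 and 4826). At all other partner genes it was smaller in KO. The SETDB1 value means a dense block of KO regions over and around the gene (chr1:150926263-150964737), in a list whose median region was 220 bp. The KDM6A antibody also had a region at an end of SETDB1 in KO (rank 5128) and KARPAS (rank 29315), and none in ARP1 WT. Whether the block reflects H3K4me1 or a trait of the KO libraries at this place was not tested. H3K27me3 regions marked 4, 6 and 10 of the 24, against 12.9%, 10.9% and 22.6% of all genes.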

How the data were processed

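Region lists of 16 human libraries, 1 a group, were used, and the 4 mouse libraries were not. Per the file headers, the authors called regions in each library with MACS, version 2.2.7.1 or 2.1.1.20160309, with no control library, no local background and a q cutoff of 0.05. Single-end KDM6A and HA tags were extended to 200 bp, per the file headers. The submitters' processing notes name Trimmomatic, Bowtie2, FastQC, MultiQC, MACS2 2.1.2 and GRCh38. The deposited pileup is the coverage at a region's summit, and the deposited fold enrichment sets it against the caller's background, which was not local, per the file headers. The deposited −log10 q comes from the same caller, per the file headers.

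A region up to 2.5 kb from the start or the far end marked a gene, with ends taken from the RefSeq table of GRCh38.p14. Lost and gained mean a call in only 1 of 2 genotypes. A WT-only or tagged-only region overlaps no region of the background list by 1 bp or more. Covered length counts bases under regions over the gene and 10 kb either side. Regions were ranked by −log10 q, then fold. Promoters were aligned globally (biopython 1.88; match 1, mismatch -1, gap opening -2, gap extension -0.5). Python 3.11.15, pandas 2.3.3 and scipy 1.17.1 were used. Depth and list length differ between libraries, so counts of calls move with them. Named are all genes lost or gained where 10 or fewer, otherwise the 10 highest ranked, taking first those with no region within 10 kb in the other genotype; the 10 highest ranked with a KDM6A or HA region; the 5 highest and 5 lowest for H3K27ac; and ZNF274, ZNF432 and ZFP36. The eleventh HA gene and the KARPAS genes were named after their values were seen. The genes, the lists and the rules were chosen with earlier results of these data known. The counting steps were tested on simulated regions, and 5 of 5 returned the known answer. Alternatives tried are given in the closing section. Protein sequences were not used here.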

Additional observations from a re-analysis of the deposited data

How the results depend on the processing

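No paired analysis was possible because each group holds 1 library. For the same reason no replicate could be left out, and KARPAS has no input to set aside. Of 228 values computed under 15 alternatives for 35 results, 161 stayed close to the reported value (counts within 1.5 times), 66 moved and 1 reversed. The cause was not tested. Some alternatives could hardly move a count, so the 161 do not measure robustness. Among these were leaving out ZFP36, adding 3 symbols of readthrough genes, and leaving out regions on the inputs, which held few regions at these genes. The numbers of genes marked with H3K27ac moved under none of the alternatives. Each alternative counted these zinc finger genes alone, so no share of all genes stands beside its values.

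With −log10 q of at least 5, H3K27me3 marked 2 (WT), 6 (KO) and 6 (JmjD-dead) genes, with 1 lost in KO, 1 lost in JmjD-dead and 5 gained in JmjD-dead. H3K4me1 then marked 121 in WT and 12 in KO, with 110 lost and 1 gained. HA marked 2 (WT) and 4 (tagged, 4 tagged-only), KDM6A 1 (WT), 3 (KO) and 0 WT-only, KARPAS 26, and the inputs 0, 0 and 0. Without H3K27me3 regions on H3K27ac, 4 (WT), 3 (KO) and 14 (JmjD-dead) genes were marked, 4 lost in KO and 14 gained in JmjD-dead. With lists of equal length, H3K27me3 in JmjD-dead gained 8 and lost 9, and KDM6A WT-only was 0, as it was without regions of the untagged HA list.

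With the start alone, H3K27ac lost 1 in KO, KARPAS marked 27, KDM6A KO 3, and the inputs 1 (WT), 5 (KO) and 2 (JmjD-dead). With a window of 1 kb, H3K27ac lost 1 in KO and 3 in JmjD-dead, H3K27me3 marked 6 (KO) and 21 (JmjD-dead, 17 gained), H3K4me1 KO 55, HA 7 (tagged, 7 tagged-only), KARPAS 29, KDM6A 0 (WT), 1 (KO) and 0 WT-only, and the inputs 0 (WT), 2 (KO) and 2 (JmjD-dead). With 10 kb, H3K27ac gained 13 and lost 1 in KO, H3K27me3 marked 25 (WT) and 20 (KO, 15 lost and 10 gained), HA 42 (WT) and 23 (tagged, 20 tagged-only), KARPAS 82, KDM6A 27 (WT), 13 (KO) and 21 WT-only, and the inputs 8 (WT), 27 (KO) and 9 (JmjD-dead). Joining clusters at 200 kb left 27 genes outside. The median H3K27me3 length ratio of JmjD-dead to WT was 0.753 with at least 1000 bp in WT, over 2 genes, against 1.28.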
